A study of Danio rerio with 12 samples.

Results

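Enterocyte absorption and lumen genes are described here as 10 named genes: slc15a1b, slc5a1, vil1, cubn, amn, dab2, chia.1, chia.2, chia.3 and clca1. They were taken by gene name from the table of raw counts, where all 10 were present among 25099 gene names, and all 10 were among the 21581 genes that had enough counts to be tested. The samples were whole AB strain zebrafish larvae at 120 hours post fertilization, 15 larvae pooled per sample. The dose was 0, 250, 750 or 1295 ng/mL of bepridil, a blocker of calcium channels that also acts on other ion channels, with 3 samples per dose and 12 in all, and the 0 ng/mL samples were the controls. The 10 names were chosen by role among genes whose changes against the controls in these same libraries were already known. Contrasts against 0 ng/mL are therefore given as a description of the 10 genes, without p-values. Where a gene is said to rise, fall, pass or not pass in them, this is likewise a description and no independent test.

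Enterocytes are the absorptive cells that line the gut. Their apical membrane is folded into a brush border of microvilli, which carries transporters for the products of digestion. In zebrafish larvae, a posterior group of enterocytes, called lysosome-rich enterocytes, takes up whole proteins by endocytosis and degrades them in lysosomes. The gut lumen holds mucus, digestive enzymes and chitinases, and the larval gut also contains chitin. Uptake of protein through cubilin, amnionless and Dab2 is also known from the proximal tubule of the kidney, so transcripts of whole larvae do not say in which organ a gene was read. In bulk samples, fewer cells of a type and less RNA per cell cannot be told apart.

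Total counts per library ran from 15571556 to 18284169. Levels are given as CPM, counts relative to library totals corrected by TMM normalization factors. Libraries of 1295 ng/mL had factors from 0.831 to 0.906, and the other libraries from 1.01 to 1.08. CPM are compared between doses for 1 gene and not between genes, since no gene lengths were used. Markers of the intestinal epithelium were set beside the 10 genes. In whole larvae, their presence does not say in which cells the 10 genes were read. All 11 listed markers, vil1 among them, were read in every library. The summed level of the 10 of them that are not among the genes described here was 562 to 791 CPM in controls, 879.9 to 1119 CPM at 250 ng/mL, 899.8 to 1065 CPM at 750 ng/mL and 499 to 603 CPM at 1295 ng/mL. Among these 10, fabp2 was at 311, 544, 579 and 299 CPM at 0, 250, 750 and 1295 ng/mL, and anpepb at 105, 203, 177 and 51.3 CPM. The sum averaged 639 CPM in controls and 989 CPM at 250 ng/mL, and most of that rise lay in fabp2 and anpepb. At 1295 ng/mL, fabp2 did not pass (log2 fold change -0.05), while anpepb fell by 1.04. Of all 11 markers, 3 were called higher and 1 lower at 250 ng/mL, with a median log2 fold change of 0.02. The counts were 1 and 0 at 750 ng/mL and 3 and 3 at 1295 ng/mL. Shares of all tested genes called higher and lower were 6.03% and 4.48%, 4.2% and 2.14%, and 18.8% and 22.2%. The transcription factor gene cdx1b, a defining marker of this list, was at 8.63 ± 3.68, 7.40 ± 1.32, 7.32 ± 0.905 and 7.86 ± 2.03 CPM at 0, 250, 750 and 1295 ng/mL (SD, n = 3 libraries per dose). It did not pass the test at any dose.

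In outline, 6 of the 10 genes rose at 250 ng/mL and the same number at 750 ng/mL, and 0 fell. They were the transporter genes slc15a1b and slc5a1, the chitinase genes chia.1, chia.2 and chia.3, and clca1. At 1295 ng/mL, 7 of 10 fell and 0 rose: slc15a1b, slc5a1, vil1, cubn, chia.1, chia.3 and clca1. Calls are an adjusted p under 0.05 in edgeR's quasi-likelihood test over all tested genes, with Benjamini-Hochberg adjustment. Of all tested genes, 10.5% were called at 250 ng/mL, 6.03% higher and 4.48% lower, and 6.33% at 750 ng/mL, 4.2% higher and 2.14% lower. At 1295 ng/mL 41% were called, 18.8% higher and 22.2% lower. All libraries of a dose lay above all controls for 7 of the 10 genes at 250 ng/mL and 8 at 750 ng/mL, beside 18.7% and 14.9% of all tested genes. They lay below all controls for 6 of the 10 at 1295 ng/mL, beside 28.5% of all tested genes. Since the names were chosen with these contrasts known, the counts describe the 10 genes and nothing is read from their distance to the shares of all genes. The median log2 fold change of the 10 genes was 1.37, 1.14 and -0.91 at the 3 doses, beside 0.04, 0.02 and -0.02 over all tested genes.

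**Figure D1:**
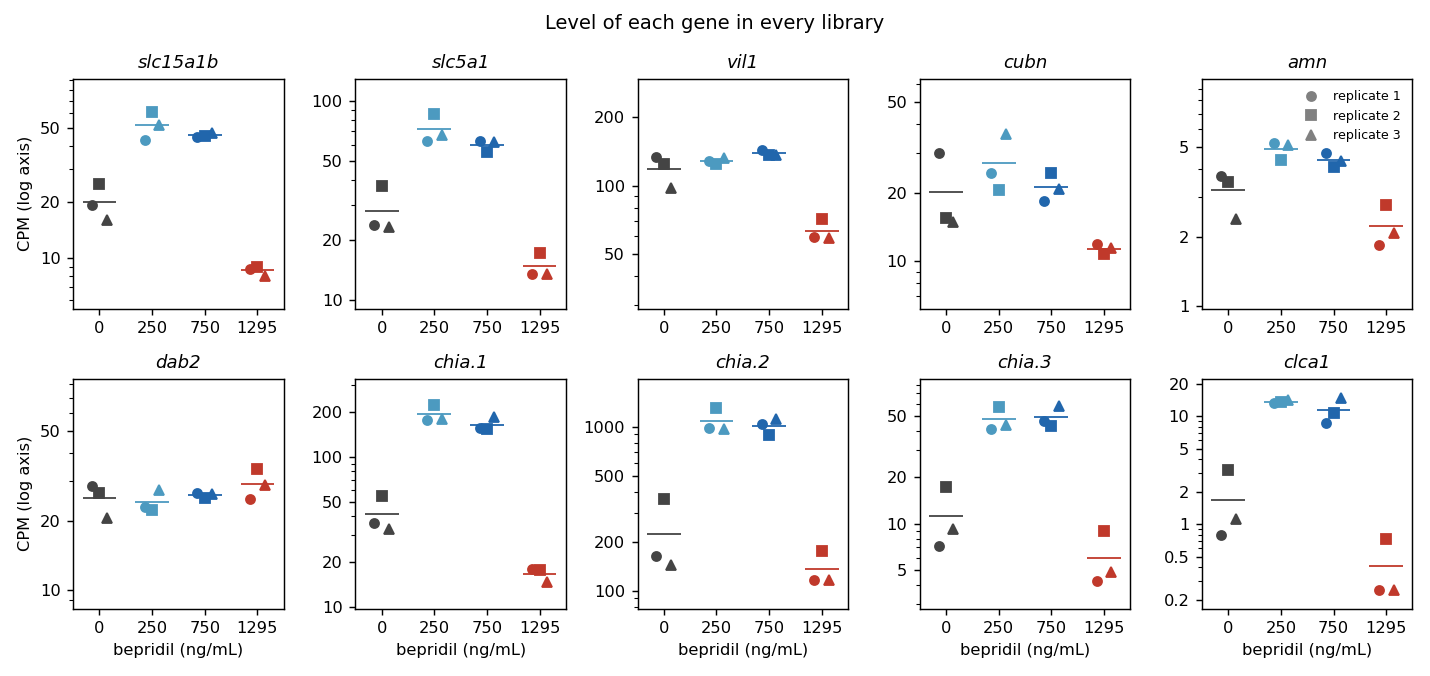
Level of each of the 10 genes in every library, in CPM on a log axis, against the bepridil dose in ng/mL (doses evenly spaced). Each symbol is 1 library, shaped by replicate number, and each line is the mean of a dose (n = 3). For slc15a1b, slc5a1, the chia genes and clca1, the 250 and 750 ng/mL libraries lie above all controls, while dab2 has overlapping libraries at every dose.

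The brush border genes came first by role. The gene slc15a1b encodes PepT1, the proton-coupled carrier that takes up dipeptides and tripeptides. It was at 19.2, 24.9 and 15.9 CPM in control replicates 1, 2 and 3 and at 43.3, 61.1 and 52.2 CPM at 250 ng/mL. At 750 ng/mL it was at 44.5, 45.3 and 47.0 CPM, and at 1295 ng/mL at 8.73, 9.02 and 8.03 CPM. The 250 and 750 ng/mL libraries lay above every control and the 1295 ng/mL libraries below every control. Against controls, its log2 fold changes were 1.38 (SE 0.15), 1.19 (SE 0.15) and -1.22 (SE 0.16) at 250, 750 and 1295 ng/mL.

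The gene slc5a1 encodes SGLT1, the sodium-coupled carrier of glucose and galactose. Its controls were at 23.8, 37.1 and 23.3 CPM, and the 250 ng/mL libraries at 62.8, 85.7 and 66.9 CPM. The 750 ng/mL libraries were at 62.8, 55.4 and 61.8 CPM and the 1295 ng/mL libraries at 13.6, 17.3 and 13.5 CPM. As with slc15a1b, the groups did not overlap with the controls at any dose, and control replicate 2 was the highest control for both transporters. Its levels were 2.56-fold and 2.14-fold higher than in controls at 250 and 750 ng/mL and 1.90-fold lower at 1295 ng/mL, and the log2 fold changes had an SE of 0.17 to 0.18.

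The gene vil1 encodes villin, the actin-bundling protein of the microvillus core. It was at 133, 125 and 97.5 CPM in controls, 128, 125 and 132 CPM at 250 ng/mL, 144, 136 and 136 CPM at 750 ng/mL, and 59.4, 71.1 and 59.0 CPM at 1295 ng/mL. The 1295 ng/mL group lay below every other library. Villin's log2 fold changes were 0.11 (SE 0.11) and 0.23 (SE 0.11) at the lower doses, neither of which passed, and -0.91 (SE 0.11) at 1295 ng/mL. The 750 ng/mL libraries all lay above the highest control by a small margin. Whether this gene and both transporter genes differed in their changes was not tested.

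The genes of endocytic protein uptake were cubn, amn and dab2. Cubilin, encoded by cubn, is a large receptor for proteins and vitamin-binding proteins, amnionless is the membrane partner that carries it to the surface, and Dab2 is a clathrin adaptor that links such receptors to the endocytic machinery. The level of cubn was 29.9, 15.5 and 14.8 CPM in controls, 24.4, 20.5 and 36.2 CPM at 250 ng/mL, 18.3, 24.5 and 20.7 CPM at 750 ng/mL, and 11.9, 10.8 and 11.4 CPM at 1295 ng/mL. Control replicate 1 and 250 ng/mL replicate 3 were the high libraries, and control libraries spanned 2.02-fold from lowest to highest. Against controls, cubn had log2 fold changes of 0.43 (SE 0.24), 0.07 (SE 0.24) and -0.82 (SE 0.25), of which only the last passed. That call was lost without control replicate 1, where the log2 fold change was -0.42, and without 1295 ng/mL replicate 2, where it was -0.78. Without control replicate 1, the change at 250 ng/mL was 0.83 and passed.

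The gene amn was read at low depth, with 30 to 91 counts per library. It was at 3.71, 3.52 and 2.42 CPM in controls, 5.21, 4.39 and 5.09 CPM at 250 ng/mL, 4.72, 4.07 and 4.32 CPM at 750 ng/mL, and 1.86, 2.77 and 2.101 CPM at 1295 ng/mL. The 250 and 750 ng/mL libraries lay above all controls, while the 1295 ng/mL libraries overlapped them. For amn, log2 fold changes were 0.61 (SE 0.19), 0.44 (SE 0.20) and -0.52 (SE 0.21), and none of the 3 passed. With total counts as the only scaling, those at 250 and 1295 ng/mL were 0.61 and -0.78 and passed. They also passed with a filter of at least 10 counts in every library, at 0.62 and -0.54, and that at 250 ng/mL with limma-voom, at 0.63. The change at 1295 ng/mL passed as well without control replicate 3 or 1295 ng/mL replicate 2, at -0.69 each time.

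The gene dab2 overlapped with controls at every dose. It was at 28.6, 26.8 and 20.6 CPM in controls, 23.2, 22.4 and 27.3 CPM at 250 ng/mL, 26.6, 25.3 and 26.5 CPM at 750 ng/mL, and 25.0, 33.9 and 28.9 CPM at 1295 ng/mL. Its log2 fold changes were -0.06 (SE 0.14), 0.04 (SE 0.14) and 0.21 (SE 0.14), and none passed. At 1295 ng/mL it was the only member with a log2 fold change above 0, and with total counts as the only scaling its value there was -0.05. Dab2 is also used in tissues outside the gut, among them vessels and kidney.

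At 1295 ng/mL, where cubn fell, markers of the proximal tubule of the pronephros, the larval kidney, had a summed level below that of every control. All 16 listed markers, cubn among them, were read in every library. The summed level of the other 15 was 228 to 299 CPM in controls, 259.7 to 301 CPM at 250 ng/mL, 247 to 274 CPM at 750 ng/mL and 165 to 208 CPM at 1295 ng/mL. Of the 16, 0 rose and 6 fell at 1295 ng/mL, where 22.2% of all tested genes were called lower. The 6 include cubn itself and the megalin gene lrp2a. At 250 ng/mL 2 of the 16 rose and 0 fell, where 6.03% of all tested genes were called higher. The megalin gene lrp2a, whose product works beside cubilin, was at 35.7 ± 4.84 CPM in controls and 19.6 ± 7.02 CPM at 1295 ng/mL (log2 fold change -0.86, SE 0.23, adjusted p = 0.00772). Its paralog lrp2b was at 10.1 ± 1.25, 18.7 ± 5.95, 14.4 ± 1.24 and 4.34 ± 1.87 CPM at the 4 doses. It rose by 0.89 at 250 ng/mL (SE 0.24, adjusted p = 0.0272) and fell by 1.23 at 1295 ng/mL (SE 0.27, adjusted p = 0.0021). The part of the kidney in the values of cubn, amn and dab2 was not tested.

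The lumen genes had the widest range over doses. The chia genes encode acidic chitinases, secreted enzymes that cleave chitin. The level of chia.1 was 36.1, 54.8 and 32.8 CPM in controls, 175, 221 and 179 CPM at 250 ng/mL, 156, 153 and 183 CPM at 750 ng/mL, and 17.9, 17.5 and 14.6 CPM at 1295 ng/mL. The 4.65-fold higher level at 250 ng/mL and the 3.98-fold higher level at 750 ng/mL stood beside a 2.48-fold lower level at 1295 ng/mL, with no overlap with controls at any dose. The log2 fold changes had an SE of 0.17 at each dose.

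The most abundant of the 3 by count was chia.2. It was at 163, 362 and 143 CPM in controls, 986, 1306 and 971 CPM at 250 ng/mL, 1036, 885 and 1109 CPM at 750 ng/mL, and 117, 175 and 117 CPM at 1295 ng/mL. Control replicate 2 lay far above the other controls, and 1295 ng/mL replicate 2 lay above the lower controls, so that the 1295 ng/mL group overlapped with the controls. For chia.2, log2 fold changes were 2.29 (SE 0.28), 2.18 (SE 0.28) and -0.70 (SE 0.27), and the last did not pass. Its value without control replicate 2 was -0.16, while without control replicate 1 or 3, or without 1295 ng/mL replicate 2, it was -0.88, -0.94 and -0.91 and passed each time. With total counts as the only scaling it was -0.96 and also passed, as it did at -0.70 without a filter or without 750 ng/mL replicate 3 and at -0.72 with a filter of at least 10 counts in every library. With replicate number added to the fit as a block it was -0.65 and passed.

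The level of chia.3 was 7.14, 17.4 and 9.24 CPM in controls, 41.2, 57.2 and 44.0 CPM at 250 ng/mL, 46.1, 43.0 and 58.1 CPM at 750 ng/mL, and 4.21, 8.96 and 4.88 CPM at 1295 ng/mL. As with chia.2, replicate 2 was highest in controls, at 250 ng/mL and at 1295 ng/mL, and only the 1295 ng/mL group overlapped with the controls. Its log2 fold changes were 2.08 (SE 0.28), 2.13 (SE 0.28) and -0.90 (SE 0.31). The call at 1295 ng/mL was lost without control replicate 2 (-0.45), without 1295 ng/mL replicate 1 (-0.70) or 3 (-0.77), with DESeq2 (-0.87) and with only the compared groups in the fit (-0.90).

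The 3 chitinase genes are copies of a family, and how reads shared between copies were counted is not given in the sources used here, so single values are uncertain. Their summed level does not depend on such a split among the 3. It was 206, 434 and 185 CPM in controls, 1202, 1584 and 1194 CPM at 250 ng/mL, 1238, 1081 and 1350 CPM at 750 ng/mL, and 139, 202 and 137 CPM at 1295 ng/mL. Within a library, chia.2 took 77.3% to 83.4% of the 3 genes' counts in controls and 84.1% to 86.9% at 1295 ng/mL, and chia.1 took 12.6% to 17.7% and 8.65% to 12.8%. The ratio of chia.2 to chia.1 counts was 5.16 ± 1.26 in controls, 5.66 ± 0.242 at 250 ng/mL, 6.17 ± 0.427 at 750 ng/mL and 8.21 ± 1.76 at 1295 ng/mL (SD, n = 3).

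Other genes of chitin turnover were on the lists of related genes. The family members chia.4 and chia.5 were at 1.02 ± 0.116 and 3.47 ± 0.378 CPM in controls and passed at no dose. The gene chia.6 rose at all 3 doses, by 0.92 (SE 0.16, adjusted p = 0.00248), 0.81 (SE 0.16, adjusted p = 0.00801) and 0.58 (SE 0.17, adjusted p = 0.0116). At 1295 ng/mL it was thus higher than in controls, while the log2 fold changes of chia.1 and chia.3 were -1.31 and -0.90, the latter with a call that was lost under the settings named above. The chitin synthase gene chs1 rose by 0.82 at 250 ng/mL (SE 0.21, adjusted p = 0.0242) and fell by 0.64 at 1295 ng/mL (SE 0.23, adjusted p = 0.0381).

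The gene clca1 encodes a member of the calcium-activated chloride channel regulator family, which in mammals is secreted by goblet cells into the mucus. It had few counts in controls, 14, 52 and 20 reads, and 4, 11 and 4 reads at 1295 ng/mL, so counting error is large in these groups. Its level was 0.800, 3.16 and 1.13 CPM in controls, 13.3, 13.6 and 14.3 CPM at 250 ng/mL, 8.64, 10.8 and 14.9 CPM at 750 ng/mL, and 0.248, 0.724 and 0.247 CPM at 1295 ng/mL. No group overlapped with the controls, and the controls spanned 3.94-fold. The log2 fold changes were 3.03 (SE 0.35), 2.77 (SE 0.35) and -2.04 (SE 0.56). Without control replicate 2 they were 3.82, 3.56 and -1.25, and the last no longer passed. Without 1295 ng/mL replicate 2, the last was -2.71.

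Markers of goblet and mucous cells overlapped between all doses in their summed level. Of the 9 listed, clca1 among them, 1 rose and 1 fell at each dose. The gene that rose at 250 and 750 ng/mL and the gene that fell at 1295 ng/mL was clca1 itself. Of all tested genes, 6.03%, 4.2% and 18.8% were called higher and 4.48%, 2.14% and 22.2% lower at the 3 doses. The 8 besides clca1 had a summed level of 266 to 299 CPM in controls, 262 to 323 CPM at 250 ng/mL, 234 to 276 CPM at 750 ng/mL and 265 to 312 CPM at 1295 ng/mL. The secretory protein gene agr2 fell by 0.81 at 250 ng/mL (SE 0.13, adjusted p = 0.000996) and rose by 0.40 at 1295 ng/mL (SE 0.12, adjusted p = 0.0184). The gut mucin gene muc2.1, the only listed marker at 0 counts in any library, averaged 0.811 CPM in controls and 0.895 CPM at 250 ng/mL.

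**Figure D2:**
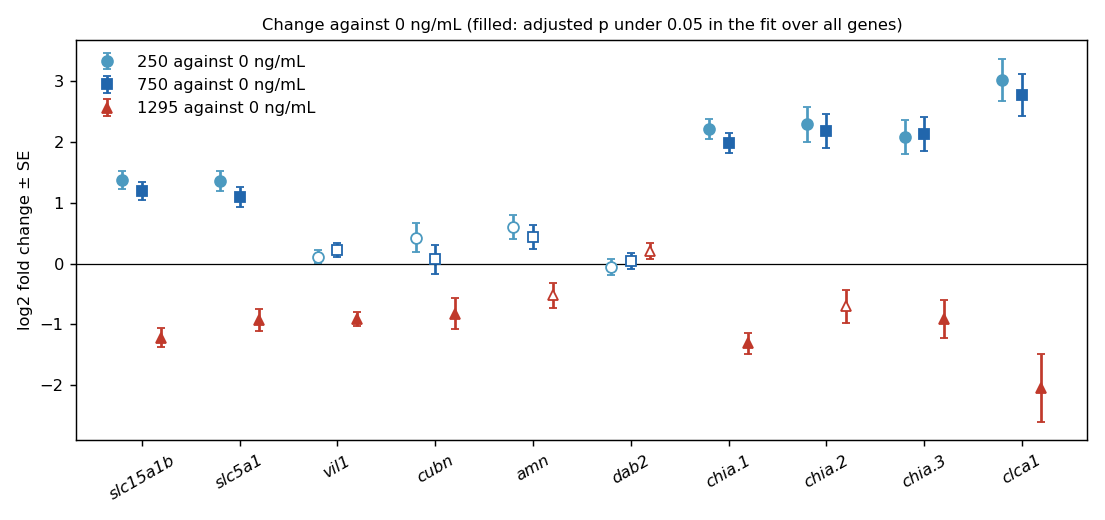
Log2 fold change of each gene against 0 ng/mL at 250, 750 and 1295 ng/mL, with error bars of 1 SE. Filled symbols had an adjusted p under 0.05 in the fit over all genes and open symbols did not. The names were chosen with these contrasts known, so the filling is descriptive. The changes of slc15a1b, slc5a1, chia.1, chia.2, chia.3 and clca1 reach up to 3.03 at the lower doses, and 9 of 10 genes lie below 0 at 1295 ng/mL.

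Neighbouring doses were then compared. These contrasts share their libraries with those against the controls, so they are not independent of how the names were chosen. Calls and p-values of the 10 genes in them are descriptive and no independent test. Between 750 and 250 ng/mL, 0 of the 10 genes passed, as did 0% of all tested genes. By edgeR 1681 genes had an unadjusted p under 0.05, and 0 of the 10 were among them. DESeq2 called 5 genes and limma-voom 0, again with 0 of the 10. The 750 ng/mL libraries lay above all 250 ng/mL libraries for 1 of the 10, vil1, and below them for 0, beside 7.44% and 6.28% of all tested genes. Log2 fold changes ran from -0.35 for cubn (95% interval -0.86 to 0.16) to 0.11 for vil1 (-0.12 to 0.35). For slc15a1b the interval was -0.50 to 0.11, for chia.1 -0.56 to 0.11, for chia.2 -0.68 to 0.47 and for clca1 -0.86 to 0.34. These intervals exclude a 2-fold change in either direction for all 10 genes. Narrower intervals, such as that of vil1, exclude smaller changes as well. Differences that lie within an interval cannot be told from no change here.

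From 750 to 1295 ng/mL, 9 of 10 genes fell and 0 rose, beside 52.1% of all tested genes called, 23.4% higher and 28.7% lower. The 9 genes had no overlap between the libraries of both doses, nor had 31% of all tested genes in this direction. The changes of both doses against controls were known when the names were chosen, so the p-values below are a description. The largest step was that of clca1, 28.1-fold lower (log2 fold change -4.81, SE 0.45, edgeR adjusted p = 1.29e-06), which was -5.45 without 1295 ng/mL replicate 2. The chitinase genes were 9.84-fold (chia.1, adjusted p = 9.47e-08), 7.39-fold (chia.2, adjusted p = 2.54e-06) and 8.18-fold lower (chia.3, adjusted p = 2.25e-06). The transporter genes were 5.304-fold (slc15a1b, adjusted p = 1.8e-07) and 4.06-fold lower (slc5a1, adjusted p = 8.85e-07). The genes vil1, amn and cubn were 2.196-fold, 1.95-fold and 1.86-fold lower, with adjusted p values of 2.19e-06, 0.00123 and 0.00781. The gene dab2 did not pass (log2 fold change 0.16, 95% interval -0.12 to 0.45, adjusted p = 0.33).

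Within a dose, libraries differed in a way that many of the 10 genes shared. In control replicate 2, chia.2 lay 0.83 above the mean of its dose on the scale of log2(CPM + 1), clca1 0.72, chia.3 0.67, chia.1 0.44, slc5a1 0.42 and slc15a1b 0.32. In the same library, cubn lay 0.28 below its mean. In 1295 ng/mL replicate 2, chia.3 lay 0.56 above, chia.2 0.39 and clca1 0.31. Over the deviations of the 12 libraries from their dose means, the 15 pairs among the 6 genes that rose at 250 ng/mL had Pearson's r of 0.61 to 0.97. The 3 pairs among vil1, amn and dab2 had r of 0.89 to 0.94. The 6 pairs of cubn with the 6 genes had r of -0.54 to -0.11. Among the remaining pairs, vil1, amn or dab2 with the 6 genes had r of 0.18 to 0.49. With vil1, amn and dab2, cubn had r of 0.44, 0.35 and 0.51. These values are a description over 12 libraries, and they share library, scaling and pool of larvae. The group of vil1, amn and dab2 leaves out cubn and was not formed by role. Higher r within it is therefore no test of a group.

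**Figure D3:**
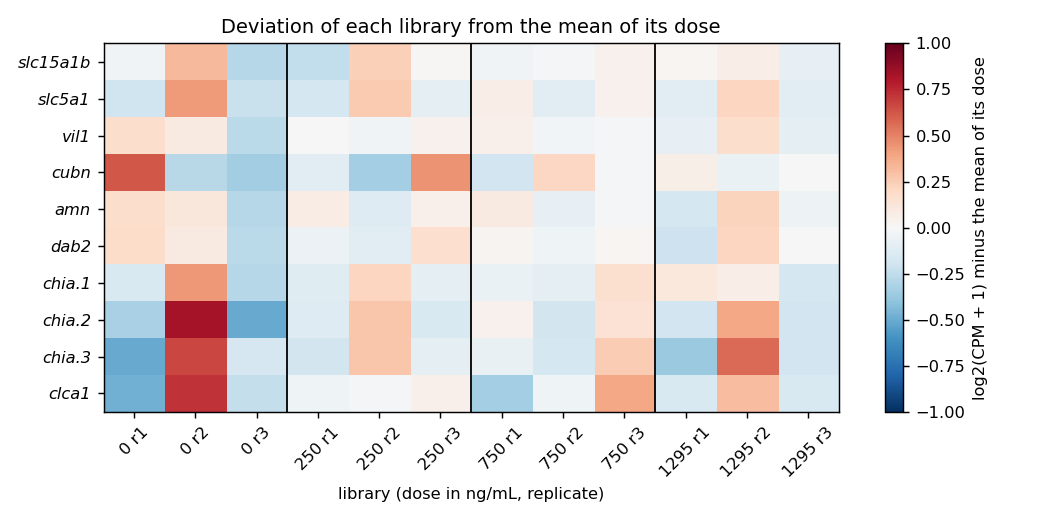
Deviation of each library from the mean of its dose, in log2(CPM + 1), for the 10 genes (rows) and 12 libraries (columns, named by dose in ng/mL and replicate, with lines between doses). Red is above and blue below the mean of the dose. Control replicate 2 is high for the transporter, chitinase and clca1 rows, with 0.83 for chia.2, and low for cubn.

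Markers of the exocrine pancreas had a higher summed level at 250 and 750 ng/mL than in controls, as had the 6 genes that rose there. Over the deviations of libraries from their dose means, r of this sum with the 6 genes ran from 0.69 to 0.97. With vil1, amn and dab2 it ran from 0.36 to 0.41, and with cubn it was -0.41. Of 15 listed markers, 13 were in the file, and none of those was at 0 in any library. Their summed level was 1446, 2813 and 1691 CPM in control replicates 1, 2 and 3. It was 6715 to 10172 CPM at 250 ng/mL and 6823 to 7825 CPM at 750 ng/mL. At 1295 ng/mL it was 1421, 2895 and 1502 CPM in replicates 1, 2 and 3, so that replicate 2 was high in both groups, as for chia.2, chia.3 and clca1. At 250 ng/mL 12 of the 13 rose, where 6.03% of all tested genes were called higher. At 1295 ng/mL 0 of the 13 rose and 0 fell, where 18.8% and 22.2% of all tested genes were called higher and lower. Their summed level overlapped with the controls at that dose, where 7 of the genes described here fell. The part of the pancreas in the values of the genes described here was not tested.

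Markers of other tissues differed as well, and for each set below the summed level overlapped with the controls at no dose. Single markers did not all follow these sums. The 11 liver markers in the file summed to 6993 to 8417 CPM in controls and 5321 to 6878 CPM at 250 ng/mL. Their sum was 6356 to 6755 CPM at 750 ng/mL and 11958 to 13967 CPM at 1295 ng/mL. Of these 11, 1 rose and 2 fell at 250 ng/mL, 1 rose and 1 fell at 750 ng/mL. At 1295 ng/mL 9 rose and 0 fell. Ionocyte and skin markers, 12 of 12, summed to 19176 to 21221 CPM in controls and 17710 to 19054 CPM at 250 ng/mL. Their sum was 16913 to 17845 CPM at 750 ng/mL and 26576 to 36905 CPM at 1295 ng/mL. Of these 12, 2 rose and 0 fell at 250 ng/mL, where the sum was lower than in controls. At 750 ng/mL 2 rose and 1 fell, and at 1295 ng/mL 11 rose and 1 fell. Markers listed for enteroendocrine cells, 12 of 13 in the file, summed to 183 to 221 CPM, 253 to 267 CPM, 262 to 330.0 CPM and 134 to 178 CPM at the 4 doses. Of the 11 tested, 2 rose and 0 fell at 250 ng/mL, and 3 rose and 0 fell at 750 ng/mL. At 1295 ng/mL 1 rose and 2 fell. The samples were whole larvae, so these values do not say whether the markers were read in the gut. Over all tested genes, 6.03%, 4.2% and 18.8% were called higher and 4.48%, 2.14% and 22.2% lower at 250, 750 and 1295 ng/mL. The part of these tissues in the results was not tested.

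For each of the 10 genes, the genes with the most similar profile were sought among 15830 others with a mean of at least 5 CPM, by Pearson's r of log2(CPM + 1) over the 12 libraries. The profiles nearest to slc15a1b were those of chia.1 and slc5a1, both with r = 0.99, and that nearest to slc5a1 was slc6a19b, a neutral amino acid transporter gene (r = 0.99). Nearest to chia.1 was anpepa, an aminopeptidase gene of the brush border (r = 0.99), nearest to chia.2 sult1st2, a sulfotransferase gene (r = 0.99), and nearest to both chia.3 and clca1, or next to it, was gc (r = 0.99 with each), which encodes the vitamin D binding protein. Nearest to vil1 was scg2b, a secretogranin gene of neuroendocrine cells (r = 0.98). Nearest to amn was gcdhb (r = 0.96) followed by slc6a19a.2 (r = 0.96), nearest to cubn tacc2 (r = 0.95) and nearest to dab2 LOC110437777 (r = 0.87). The doses form separate groups of libraries, and over the deviations from the dose means, these r ran from 0.62 (scg2b with vil1) to 0.97 (gc with chia.3).

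Other genes of absorption, uptake and the lumen were taken from 4 lists written from textbook knowledge, without the 10 genes. Earlier results of these data were known when the lists were written, so their counts are given as a description. Genes named from them were picked by a small p in these contrasts, or for their roles after values were seen. Their p-values are therefore descriptive too. They held 207 gene names, of which 183 were in the file and 179 were tested. At 250 ng/mL, 55 of the 179 rose and 13 fell, where 6.03% and 4.48% of all tested genes were called higher and lower. At 750 ng/mL, 39 rose and 7 fell, beside 4.2% and 2.14%, and at 1295 ng/mL 51 rose and 50 fell, beside 18.8% and 22.2%. With total counts as the only scaling, which moved the median over all tested genes at 1295 ng/mL from -0.02 to -0.27, that last split was 27 higher and 74 lower. Under that scaling, 9670 of all 21581 tested genes were called at 1295 ng/mL, 1401 of them higher and the rest lower. The same counts over all genes stand beside the splits of single lists given below for that scaling. At 250 ng/mL, the 68 calls were 45 without 250 ng/mL replicate 3. Over all tested genes, 2269 of 21581 were called with all libraries and 1069 of 21718 without that one.

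Of 64 tested genes of the brush border and nutrient transport, 30 rose and 1 fell at 250 ng/mL. At 750 ng/mL 19 rose and 0 fell, and at 1295 ng/mL 6 rose and 30 fell. Shares of all tested genes called higher were 6.03%, 4.2% and 18.8%, and shares called lower 4.48%, 2.14% and 22.2%. Their median log2 fold changes were 0.47, 0.34 and -0.59. The transporter gene slc6a19b was at 13.3 ± 1.63, 40.3 ± 7.12, 32.2 ± 4.74 and 6.06 ± 1.73 CPM at the 4 doses. It rose by 1.60 at 250 ng/mL (SE 0.17, adjusted p = 8.9e-05) and fell by 1.13 at 1295 ng/mL (SE 0.19, adjusted p = 0.000407). The microvillus myosin gene myo7bb rose by 0.78 (SE 0.12, adjusted p = 0.000761) and fell by 0.99 (SE 0.13, adjusted p = 4.96e-05).

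The glutamate transporter gene slc1a1 and the actin-bundling gene pls1 were named for their small p at 1295 ng/mL. Their log2 fold changes at 250 ng/mL were 0.21 (adjusted p = 0.216) and 0.20 (adjusted p = 0.241), and at 1295 ng/mL they fell by 1.11 (SE 0.11, adjusted p = 1.13e-05) and by 0.89 (SE 0.11, adjusted p = 3.74e-05). The meprin gene mep1b, a brush border protease, was at 0.952 ± 0.481 CPM in controls, 9.57 ± 1.09 CPM at 250 ng/mL and 0.388 ± 0.406 CPM at 1295 ng/mL, where it did not pass (adjusted p = 0.0834). The second peptide transporter gene slc15a1a, the paralog of slc15a1b, was at 5.58 ± 1.42, 12.6 ± 2.28, 14.5 ± 2.52 and 1.95 ± 0.790 CPM at the 4 doses. Its log2 fold changes were 1.18 (SE 0.22, adjusted p = 0.004), 1.38 (SE 0.22, adjusted p = 0.0021) and -1.52 (SE 0.27, adjusted p = 0.000608).

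Genes of dietary lipid absorption were called in both directions, as were all tested genes. Of 34 tested, 11 rose and 6 fell at 250 ng/mL, beside 6.03% and 4.48% of all tested genes. At 750 ng/mL 10 rose and 3 fell, beside 4.2% and 2.14%. At 1295 ng/mL 13 rose and 7 fell, beside 18.8% and 22.2%. The fatty acid receptor gene cd36 rose by 1.05 at 250 ng/mL (SE 0.17, adjusted p = 0.00135) and fell by 0.65 at 1295 ng/mL (SE 0.18, adjusted p = 0.00857). The triglyceride synthesis gene dgat1a fell by 1.27 at 1295 ng/mL (SE 0.15, adjusted p = 3.45e-05). The apolipoprotein genes apoa1a, apoa1b and apoc2, also made by the liver, rose at 1295 ng/mL by 1.17, 0.90 and 0.95 (adjusted p = 3.41e-05, 7.42e-05 and 0.000117), and apoa1a fell by 0.84 at 250 ng/mL (adjusted p = 0.00161). The list's median was 0.24 at 250 ng/mL and 0.23 at 1295 ng/mL, and the latter was -0.02 with total counts as the only scaling.

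Of 46 tested genes of uptake and degradation in lysosome-rich enterocytes, 8 rose and 4 fell at 250 ng/mL, beside 6.03% and 4.48% of all tested genes. At 750 ng/mL 6 rose and 1 fell, beside 4.2% and 2.14%. At 1295 ng/mL 21 rose and 7 fell, beside 18.8% and 22.2%. With total counts as the only scaling, 11 rose and 11 fell at that dose. The cathepsin gene ctsl.1 was at 22.3 ± 7.94, 106 ± 13.3, 101 ± 19.6 and 35.0 ± 9.55 CPM at the 4 doses, and rose by 2.26 at 250 ng/mL (SE 0.23, adjusted p = 7.17e-05) and by 0.65 at 1295 ng/mL (SE 0.23, adjusted p = 0.0319). The ileal bile acid binding protein gene fabp6 rose by 1.62 at 250 ng/mL (SE 0.21, adjusted p = 0.000331) and had a log2 fold change of 0.18 at 1295 ng/mL (adjusted p = 0.511). The lysosomal protease genes ctss2.1, ctsba, ctsd and ctsla, which are also used by many other cells, rose at 1295 ng/mL by 1.22, 0.88, 0.78 and 0.95, with adjusted p values from 2.49e-05 to 5.56e-05. At that dose cubn fell.

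Of 35 tested genes of mucus, chitin and the lumen, 6 rose and 2 fell at 250 ng/mL, beside 6.03% and 4.48% of all tested genes. At 750 ng/mL 4 rose and 3 fell, beside 4.2% and 2.14%. At 1295 ng/mL 11 rose and 6 fell, beside 18.8% and 22.2%. With total counts as the only scaling, 4 rose and 11 fell at that dose. The membrane mucin gene muc13b rose by 0.94 at 250 ng/mL (SE 0.15, adjusted p = 0.0015) and fell by 0.90 at 1295 ng/mL (SE 0.16, adjusted p = 0.000586). The claudin gene cldnb, the transglutaminase gene tgm2b and the lysozyme gene lyz rose at 1295 ng/mL by 1.101, 0.94 and 0.71 (adjusted p = 3.95e-06, 2.18e-05 and 0.000421). All 3 are also expressed outside the gut.

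**Figure D4:**
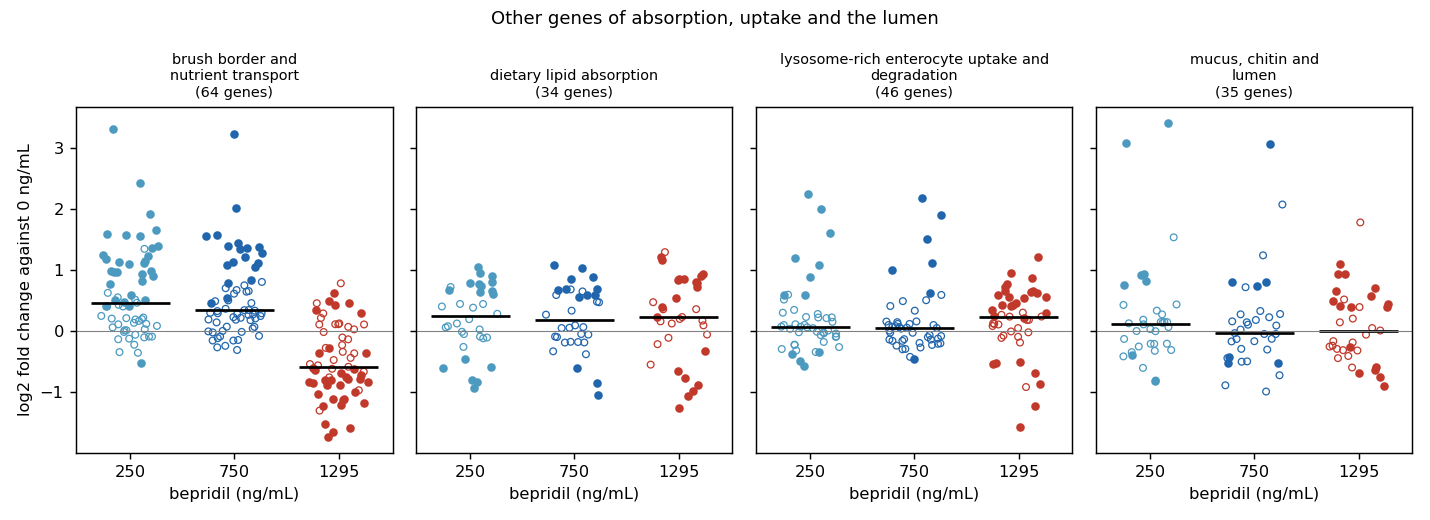
Log2 fold change against 0 ng/mL at 250, 750 and 1295 ng/mL for each tested gene of the 4 lists of related genes. Each point is 1 gene, filled where its adjusted p was under 0.05, and black lines are list medians. Brush border genes lie mostly above 0 at the lower doses (median 0.47 at 250 ng/mL) and below it at 1295 ng/mL (median -0.59). The medians of the other lists run from -0.03 to 0.24.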

How the data were processed

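Total RNA was isolated with RNAiso Plus and made into strand-specific mRNA libraries, per the labels' protocols. The submitters' processing notes name Trimmomatic, HISAT2, HTSeq and genome build GRCz11. Versions, annotation and the strand setting were not given in the sources used here. Raw read counts per gene name were deposited by the authors.

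Genes kept by filterByExpr were tested with edgeR 4.0.16 in R 4.3.3, after TMM scaling, in 1 quasi-likelihood fit of the 12 libraries by dose group (8 residual degrees of freedom, prior count 0.125). Benjamini-Hochberg adjustment ran over 21581 genes. An SE is the absolute log2 fold change over the square root of F. The common dispersion of 0.0146 is a coefficient of variation of 12.1% between libraries. No 2 replicate libraries agreed within sampling noise (chi-square per degree of freedom 3.69 to 16.1). Separate clutches are not named in the labels, so p-values measure no more than the spread among these samples, and that spread may be technical.

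Members and lists were chosen with earlier results of these data known. From each list, the 4 genes with the smallest p at 1295 ng/mL and the 2 at 250 ng/mL are named, except 1 that is not reported here. The genes slc15a1a, lrp2a, lrp2b, chia.4, chia.5, chia.6, chs1, cdx1b and muc2.1 were added for their roles after values were seen. Outside this rule, fabp2 and anpepb were also named, from the intestinal markers. Alternatives were other scalings, filters, DESeq2 1.42.0, limma-voom (limma 3.58.1), only the compared groups, a replicate block and each library left out. No sequences, gene lengths or coordinates were used.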

Additional observations from a re-analysis of the deposited data

How the results depend on the processing

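The number of the 10 genes called was 6 to 7 at 250 ng/mL, 5 to 6 at 750 ng/mL and 5 to 9 at 1295 ng/mL over all settings tried. It was 8 to 9 for 1295 against 750 ng/mL and 0 for 750 against 250 ng/mL in each of them. With each library left out, the counts ran from 6 to 7, 6 to 6, 5 to 9, 9 to 9 and 0 to 0 in these comparisons, and those of the pathway genes from 45 to 77, 31 to 52, 86 to 107, 110 to 124 and 0 to 0, in the same order (250, 750 and 1295 against 0, 1295 against 750, 750 against 250 ng/mL). Over all tested genes, 21718 to 21770 in these fits, calls ran from 1069 to 3051, 631 to 1568, 6519 to 9607, 9599 to 11452 and 0 to 1, in that order. A filter of at least 10 counts in every library left out clca1. With the replicate block, the numbers were 6, 6, 8, 9 and 0 for the 10 genes, and 69, 48, 99, 118 and 0 for the pathway genes. For all 21581 tested genes they were 1940, 1275, 8374, 10852 and 0. The block turned 1 uncalled value into a called one among the 10 genes, chia.2 at 1295 ng/mL (-0.65). The numbers were not taken to pair the samples, since the labels state no shared clutch or batch and 5 of 18 same-numbered pairs had a correlation of deviations over 0.1 (range -0.39 to 0.22).

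Signs turned only for values that had not passed. With total counts only, dab2 was at -0.052 (1295 against 0 ng/mL) and -0.076 (1295 against 750 ng/mL). With each library left out, log2 fold changes ran from -0.010 to 0.20 for vil1 and from -0.19 to 0.039 for dab2 at 250 ng/mL, and from -0.11 to 0.48 for cubn and from -0.085 to 0.14 for dab2 at 750 ng/mL. For 750 against 250 ng/mL they ran from -0.18 to 0.046 for chia.2 and from -0.082 to 0.20 for chia.3. The cause was not tested. Low counts limit clca1 and amn.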
